A study of Mus musculus with 7 samples.

Results

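The 10 genes described here are markers of monocytes and macrophages: Lyz2, Csf1r, Cd68, Adgre1, Itgam, Cd14, Mrc1, Ctss, Ccr2 and Ly6c2. They were taken by gene symbol from a table of 52224 genes, all 10 were found, and all 10 passed the filter on low values (1 FPKM or more in 2 or more libraries). RNA was sequenced from haematopoietic stem cells of wild-type C57BL/6J mice, sorted from bone marrow as LSK cells (a lineage-negative gate with Sca-1 and c-Kit) that carried CD150 and lacked CD48. The cells were cultured for 48 h with gemcitabine at 0.5 µM (Gem, n = 2 libraries), with hydroxyurea at 100 µM (HU, n = 2), or with the solvent DMSO (n = 3). Gemcitabine mimics deoxycytidine and enters DNA during its synthesis, while hydroxyurea blocks ribonucleotide reductase and so the supply of deoxynucleotides. No gene was altered in any group, and no label states whether a group's libraries are separate mice or separate cultures; p-values here thus measure only library-to-library spread, which may be technical. Cells before culture were not analysed here.

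Monocytes are made in the bone marrow from granulocyte and monocyte progenitors, enter the blood and can become macrophages in tissues. The survival and maturation of these cells depend on M-CSF and its receptor, and recruitment from the marrow depends on the chemokine receptor CCR2. Classical mouse monocytes carry Ly6C at a high level, and macrophages are rich in lysosomal proteins such as lysozyme, CD68 and cathepsins. A lineage-negative stem cell gate is meant to leave out cells that carry CD11b, the product of Itgam.

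Values are FPKM, a read level per kilobase of transcript scaled to the mapped fragments of each library, so levels can be compared between genes per length. The sequencing depth is unknown. Summed over the table, FPKM came to 703016 to 729258 in Gem, 647760 to 651315 in HU and 818775 to 832979 in DMSO, and the median log2 fold change of the 13865 genes tested was -0.25 in Gem and -0.30 in HU against DMSO. Changes are therefore given as deposited and after a trimmed-mean scaling of the libraries (called scaled), which brought these medians to 0.011 and 0.019. Genes above 0 numbered 27887 to 29158 in Gem, 29687 to 31153 in HU, and 21251 to 23047 in DMSO, a difference whose part in the marker changes was not tested. The stem cell label was checked on genes of the stem cell list. Slamf1, the gene of the sorting marker CD150, was low at 0.41 to 1.25 FPKM over the 7 libraries, as was Fgd5 at 0 to 0.5. Kit was at 29.0 to 48.2 FPKM, and Cd34, which is not among the sorting markers, at 98.3 to 128. Procr was at 9.06 to 17.0 FPKM and Hlf at 0.6 to 3.68. These levels do not establish that the cells were still stem cells after culture. Ly6a, the gene of the sorting marker Sca-1, was at 26.2 and 21.2 FPKM in Gem, 14.7 and 18.3 in HU, and 34.9, 34.3 and 48.3 in DMSO, and it fell for the mean of both drugs as deposited (log2 -0.94 ± 0.15, SE, limma adjusted p = 0.00287) and scaled (-0.62, adjusted p = 0.0463). Of the DMSO libraries, DMSO 3 held the highest value for 5 of the 10 markers (Lyz2, Csf1r, Cd68, Adgre1 and Cd14) and the lowest for 2 (Mrc1 and Ccr2). In these bulk samples fewer cells of a type and less RNA per cell cannot be told apart.

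Lyz2 and Ly6c2, the highest of the 10 markers, each have a close copy from which reads must be told apart by a few bases. The coding sequences of Lyz2 and Lyz1 in the GENCODE M21 annotation (GRCm38) are 447 bases each, differ at 22 of them (95.1% identical) and share a longest identical run of 118 bases; the genes lie 5475 bases apart. The stretches of coding bases 43 to 132 are shown 5′ to 3′ because they hold 13 of these differences, printed in capitals.
Lyz2: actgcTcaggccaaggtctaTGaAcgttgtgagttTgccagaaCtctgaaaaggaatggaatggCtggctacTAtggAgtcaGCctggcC
Lyz1: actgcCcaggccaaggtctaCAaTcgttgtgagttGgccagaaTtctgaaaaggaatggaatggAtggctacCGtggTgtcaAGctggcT
Ly6c2 and Ly6c1 have coding sequences of 396 bases that differ at 9 positions (97.7% identical), with a longest identical run of 188 bases and 59327 bases between the genes. Their coding bases 1 to 90 hold 6 of the differences, again in capitals.
Ly6c2: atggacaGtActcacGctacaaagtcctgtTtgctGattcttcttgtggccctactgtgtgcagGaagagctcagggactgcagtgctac
Ly6c1: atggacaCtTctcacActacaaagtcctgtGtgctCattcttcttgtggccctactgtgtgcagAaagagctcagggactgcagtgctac
The copies were listed at far lower levels. Lyz1 was at 10.2 and 4.84 FPKM in Gem, 9.58 and 6.66 in HU, and 4.58, 5.42 and 6.66 in DMSO. Ly6c1 was at 1.84 and 1.47 FPKM in Gem, 0.70 and 0.55 in HU, and 0.65, 1.02 and 2.45 in DMSO. How the authors counted reads that fit both copies is not given in the sources used here, so the split within each pair is uncertain. In the GENCODE M21 annotation of GRCm38 (mm10), Lyz2 lies on chromosome 10 (117277331 to 117282321), Ly6c2 on chromosome 15 (75108158 to 75111970) and Cd68 on chromosome 11 (69664213 to 69666153), all on the minus strand. On the plus strand lie Adgre1 on chromosome 17 (57358691 to 57483527), Itgam on chromosome 7 (128062640 to 128118491), Mrc1 on chromosome 2 (14229392 to 14332057), Ctss on chromosome 3 (95526786 to 95556403) and Ccr2 on chromosome 9 (124101950 to 124113557). FPKM covers whole genes, so exons and untranslated regions are not told apart.

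Csf1r encodes the receptor of M-CSF and IL-34, the main growth factor receptor of monocytes and macrophages. Its level was 237 and 241 FPKM in Gem, 234 and 248 in HU, and 254, 263 and 299 in DMSO. All 4 drug libraries lay below all 3 DMSO libraries, with DMSO 3 the highest. The log2 fold change of FPKM + 1 was -0.18 ± 0.09 in Gem (SE, limma, Benjamini-Hochberg adjusted p = 0.161) and -0.17 ± 0.09 in HU (adjusted p = 0.160), so neither passed the threshold of 0.05, and after scaling the values were 0.12 and 0.20 (limma adjusted p = 0.565 and 0.236). Csf1r lies on chromosome 18 (61100598 to 61132149, plus strand, GRCm38), and 15.1% of its exonic bases overlap exons of Hmgxb3 on the other strand, a gene at 7.41 to 11.4 FPKM. Whether reads kept their strand is not stated in the labels.

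Ccr2 encodes the receptor of the chemokine CCL2, which draws monocytes out of the marrow. It was at 114 and 87.4 FPKM in Gem, 76.8 and 96.3 in HU, and 131, 130.04 and 109 in DMSO. The HU libraries lay below all DMSO libraries, while Gem 1 lay above DMSO 3. Ccr2 fell in HU (log2 -0.51 ± 0.15, SE, limma adjusted p = 0.0305) but not past the threshold in Gem (-0.30 ± 0.15, limma adjusted p = 0.177). Leaving out DMSO 1 ended the HU call (-0.46, limma adjusted p = 0.0841), as did leaving out DMSO 2 (-0.47, adjusted p = 0.0751) or HU 1 (-0.35, adjusted p = 0.188), and the scaled value was -0.15 (adjusted p = 0.538).

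Ly6c2 encodes the GPI-anchored antigen Ly6C by which classical monocytes are recognised, and it fell with both drugs. Its level was 2420.0 and 1919 FPKM in Gem, 1904 and 1927 in HU, and 3641, 3002 and 3166 in DMSO. The drug libraries all lay below the DMSO libraries, and Gem 1 stood nearest to DMSO. Means were 2169 ± 354 FPKM in Gem, 1915 ± 15.9 in HU and 3269.8 ± 332 in DMSO (SD, n = 2, 2 and 3). The log2 fold change was -0.60 ± 0.13 in Gem (SE, limma adjusted p = 0.0190) and -0.77 ± 0.13 in HU (adjusted p = 0.00460), the largest falls among the 10 markers in each comparison. The Gem call was lost without Gem 2 (-0.43, limma adjusted p = 0.144) and without DMSO 1 (-0.52, adjusted p = 0.0622), whereas the HU call held without each library in turn. After scaling its groups still did not overlap and its log2 fold changes were still the lowest of the 10, at -0.29 in Gem and -0.40 in HU (limma adjusted p = 0.275 and 0.0819).

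**Figure D1:**
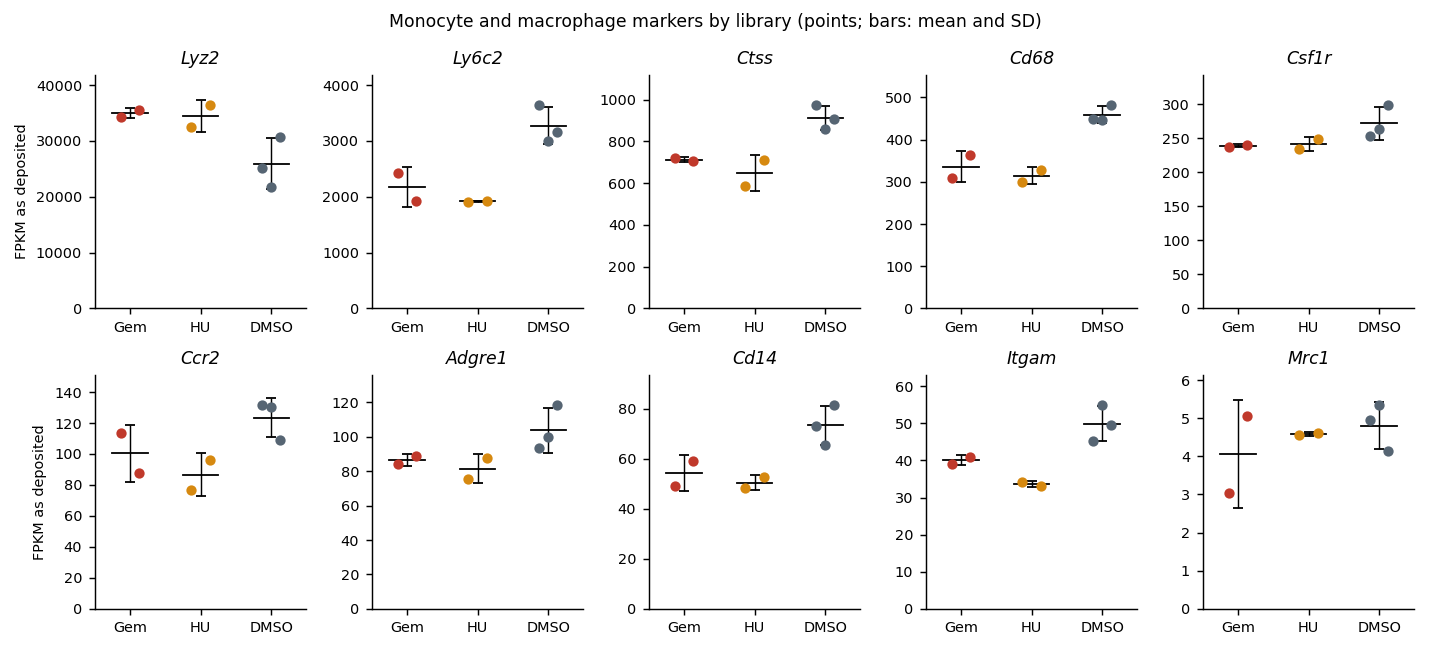
FPKM of the 10 markers (vertical axis, as deposited, each panel with its own scale from 0) in the Gem, HU and DMSO libraries; points are libraries and bars are the mean and SD. Lyz2 is higher in the 4 drug libraries, Csf1r, Cd68, Adgre1, Itgam, Cd14, Ctss and Ly6c2 are lower in all 4, and Ccr2 and Mrc1 overlap with DMSO.

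Lyz2 encodes the lysozyme of macrophages and neutrophils, which cleaves the bacterial cell wall, and was the only marker of the 10 whose drug libraries lay above DMSO as deposited. Its level was 34347 and 35554 FPKM in Gem, 32469 and 36422 in HU, and 25181, 21718 and 30761 in DMSO. The lowest drug library, HU 1, lay above DMSO 3, the highest of the controls. Lyz2 ranked 2 among all genes in each of the 7 libraries and took 4.71% and 5.06% of the summed FPKM in Gem, 5.01% and 5.59% in HU, and 3.02%, 2.65% and 3.76% in DMSO. Over the 10 markers its share of the sum was 89.6% and 91.0% in Gem, 90.9% and 91.3% in HU, and 81.6%, 81.5% and 85.5% in DMSO.

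The test of Lyz2 depended on the settings. As deposited the log2 fold change was 0.45 ± 0.20 in Gem (SE, limma adjusted p = 0.139) and 0.42 ± 0.20 in HU (adjusted p = 0.129), neither past the threshold. Without DMSO 3 both passed, at 0.58 (limma adjusted p = 0.0289) and 0.56 (adjusted p = 0.0224). After scaling the values were 0.75 in Gem (limma adjusted p = 0.127) and 0.79 in HU (adjusted p = 0.0481), so that HU passed narrowly. Quantile normalization set every library's value for Lyz2 to the same number, since its rank was the same in all of them, and gave 0 by construction.

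Ctss and Cd68 encode a cathepsin that cuts proteins for antigen presentation and a heavily glycosylated lysosomal membrane protein of macrophages, and both fell with each drug as deposited. Ctss was at 720.4 and 705 FPKM in Gem, 586 and 708 in HU, and 974, 859 and 906 in DMSO. Cd68 was at 309.65 and 363 FPKM in Gem, 299.7 and 329 in HU, and 449.8, 445 and 482 in DMSO. For both genes the drug libraries lay below the DMSO libraries with a clear gap. Ctss changed by -0.35 ± 0.10 in Gem (SE, limma adjusted p = 0.0422) and -0.50 ± 0.10 in HU (adjusted p = 0.00822), and Cd68 by -0.45 ± 0.09 (adjusted p = 0.0150) and -0.55 ± 0.09 (adjusted p = 0.00420). Their scaled values were -0.050 and -0.13 for Ctss and -0.15 and -0.18 for Cd68, in Gem and HU in that order, none past the threshold (limma adjusted p from 0.330 to 0.840).

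The Gem calls of both were lost without single libraries, while the log2 fold changes stayed between -0.57 and -0.31 in these fits. That of Cd68 was lost without Gem 1 (-0.34, limma adjusted p = 0.0793) or Gem 2 (-0.57, adjusted p = 0.0587). That of Ctss was lost without Gem 1 (-0.37, limma adjusted p = 0.127), Gem 2 (-0.34, adjusted p = 0.191), DMSO 1 (-0.31, adjusted p = 0.123), DMSO 2 (-0.40, adjusted p = 0.0582) or DMSO 3 (-0.36, adjusted p = 0.0576). In HU the call of Cd68 held without each library, and that of Ctss was lost without HU 1 (-0.36, limma adjusted p = 0.0588), the library with the lowest Ctss.

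Adgre1, Itgam, Cd14 and Mrc1 encode surface proteins: the adhesion receptor F4/80, the alpha M chain of the integrin CD11b/CD18 that serves as complement receptor, the co-receptor that passes lipopolysaccharide to TLR4, and the mannose receptor CD206. Adgre1 was at 84.2 and 88.9 FPKM in Gem, 75.6 and 87.5 in HU, and 93.4, 99.8 and 118 in DMSO. Itgam was at 39.1 and 41.0 FPKM in Gem, 34.25 and 33.1 in HU, and 45.4, 54.9 and 49.6 in DMSO. Each drug library lay below each DMSO library for both genes, and for Itgam the HU libraries also lay below the Gem libraries.

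Cd14 and Mrc1 differed in that only Cd14 kept the groups apart. Cd14 was at 49.3 and 59.3 FPKM in Gem, 48.3 and 52.55 in HU, and 73.2, 65.6 and 81.4 in DMSO. Mrc1, the lowest of the 10 markers in every library, was at 3.05 and 5.06 FPKM in Gem, 4.56 and 4.62 in HU, and 4.95, 5.34 and 4.13 in DMSO. The Mrc1 libraries overlapped, and its log2 fold changes were -0.22 ± 0.20 in Gem (SE, limma adjusted p = 0.434) and -0.049 ± 0.20 in HU (adjusted p = 0.861).

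Itgam and Cd14 fell with both drugs and Adgre1 with HU, as deposited. Itgam changed by -0.31 ± 0.09 in Gem (SE, limma adjusted p = 0.0494) and -0.55 ± 0.09 in HU (adjusted p = 0.00431). Cd14 changed by -0.43 ± 0.12 in Gem (SE, limma adjusted p = 0.0365) and -0.53 ± 0.12 in HU (adjusted p = 0.0113). Adgre1 changed by -0.34 ± 0.11 in HU (SE, limma adjusted p = 0.0490), with -0.25 ± 0.11 in Gem (adjusted p = 0.145), and its direction turned after scaling (0.048 in Gem and 0.024 in HU). The Gem call of Itgam was lost without any 1 of the 7 libraries (limma adjusted p from 0.0515 without DMSO 1 to 0.182 without Gem 1), and its HU call was kept without each of them. Cd14 lost its Gem call without DMSO 1 (-0.43, limma adjusted p = 0.0920), DMSO 3 (-0.35, adjusted p = 0.0648), Gem 1 (-0.30, adjusted p = 0.184) or Gem 2 (-0.56, adjusted p = 0.0811), and its HU call without HU 1 (-0.47, adjusted p = 0.0727). The HU call of Adgre1 was lost without each library except DMSO 1 (limma adjusted p up to 0.259, without HU 1). Of the exonic bases of Itgam, 68.7% are shared with the same-strand model Gm49368, which was listed at 0.25 to 6.11 FPKM.

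The counts of falls are set beside those of all genes, since most of the table was lower with the drugs. In Gem 5 of the 10 markers fell (Cd68, Ly6c2, Cd14, Ctss and Itgam) and 0 rose, while of all genes tested 23.2% fell, 1.5% rose and 24.7% passed in either direction. In HU 7 of 10 fell (the same 5, Ccr2 and Adgre1) and 0 rose, while of all genes 35.5% fell, 4.46% rose and 40% passed in either direction. The median log2 fold change of the 10 markers was -0.30 in Gem and -0.51 in HU, against -0.25 and -0.30 over all genes. After scaling 0 markers passed in Gem in limma (2 at an unadjusted p under 0.05, Lyz2 and Ly6c2), where 0.952% of all genes did, and 1 rose in HU, Lyz2, where 4.75% of all genes rose and 10% passed. Among the 8512 genes with a mean of 5 FPKM or more, which include 9 of the markers (all but Mrc1), 44.5% fell in Gem and 58.7% in HU, against 5 and 7 of the 9 markers, a smaller excess than over all genes. No test was run on these shares, and both comparisons use the same 3 DMSO libraries. The count in Gem rested on single libraries: without Gem 2 it was 0 (and 13 over all genes), without Gem 1 or DMSO 1 it was 1, without DMSO 2 or DMSO 3 it was 3 (with Lyz2 higher among the 3 without DMSO 3). In HU it was 3 without HU 1.

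**Figure D2:**
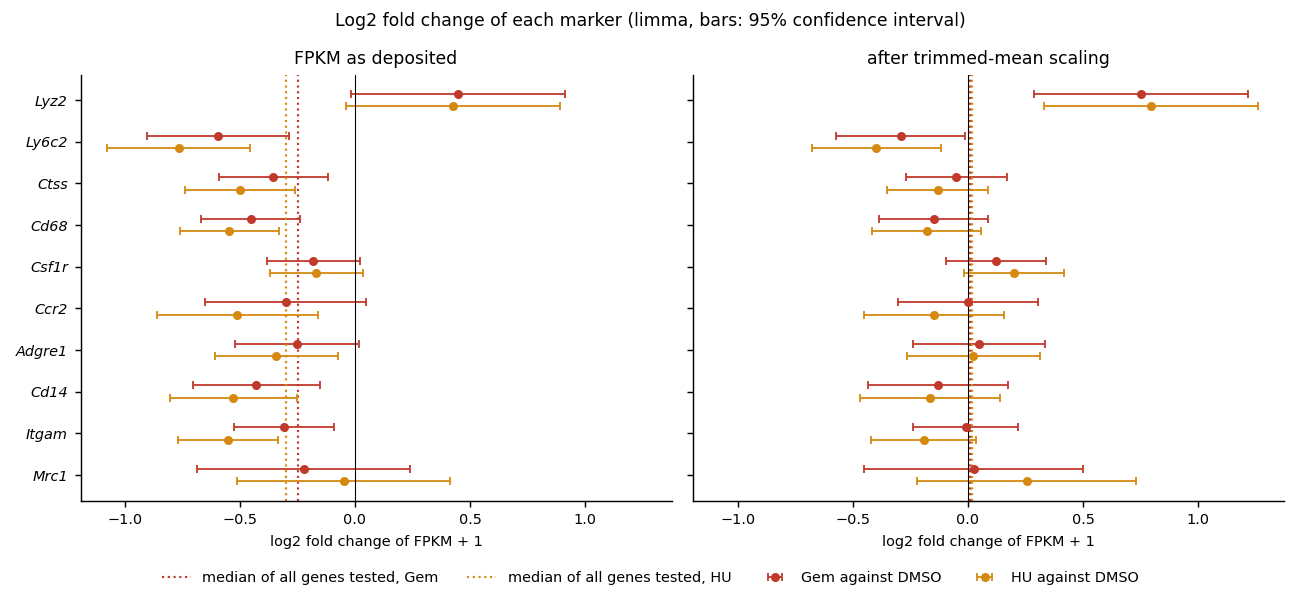
Log2 fold change of FPKM + 1 (horizontal axis) of each marker in Gem and HU against DMSO, as deposited (left) and after trimmed-mean scaling (right), with 95% confidence intervals from limma and dotted lines at the median of all genes tested. As deposited 9 markers lie below 0 and Lyz2 above it; after scaling Lyz2 lies at 0.75 and 0.79 and Ly6c2 at -0.29 and -0.40, with the other 8 between -0.19 and 0.25.

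The mean of both drugs against DMSO uses 4 libraries against 3. As deposited 7 of 10 markers fell and 0 rose, while of all genes 38% fell, 4.26% rose and 42.3% passed in either direction. Among the 8512 genes with a mean of 5 FPKM or more 62.7% fell, and 7 of 9 markers. Log2 fold changes of the 7 ran from -0.68 ± 0.11 for Ly6c2 (SE, limma adjusted p = 0.00318) through -0.50 ± 0.08 for Cd68 (adjusted p = 0.00269) to -0.30 ± 0.10 for Adgre1 (adjusted p = 0.0408), and Lyz2 was at 0.44 ± 0.17 (adjusted p = 0.0699). Cd68, Itgam, Cd14, Ctss and Ly6c2 kept this call without each library in turn. Ccr2 lost it without DMSO 1, DMSO 2, Gem 2 or HU 1 (log2 from -0.37 to -0.31, limma adjusted p up to 0.110), Adgre1 lost it without DMSO 2, DMSO 3, Gem 1, Gem 2 or HU 1 (adjusted p up to 0.108), and Lyz2 passed without DMSO 3 (0.57, adjusted p = 0.0125). At 0.44 as deposited, Lyz2 also passed among genes with a mean of 5 FPKM or more (limma adjusted p = 0.0225) and with no mean-variance trend (adjusted p = 0.0456). After scaling 1 marker rose, Lyz2 (0.77 ± 0.17, SE, limma adjusted p = 0.0336), while 3.93% of all genes rose and 4.9% fell, and Ly6c2 was at -0.34 (adjusted p = 0.0761).

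All 4 drug libraries lay below all DMSO libraries for 7 markers and above them for Lyz2. Over all genes tested the share was 42.6% below and 3.76% above. On the scaled values 1 marker, Ly6c2, lay below and 1, Lyz2, above, with shares over all genes of 11.1% and 10.8%. Among genes with a mean of 5 FPKM or more the shares as deposited were 61.8% below and 0.822% above, and on the scaled values 16.5% and 7.89%. In the table as deposited, values below DMSO were common and values above it were rare, which is the side on which Lyz2 lay.

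Gemcitabine set directly against hydroxyurea gave 0 of 10 markers past the threshold in limma, while 0.101% of all genes passed. At an unadjusted p under 0.05 stood 1 marker, Itgam, and 1484 of the 13865 genes tested. After scaling 0 markers did, with Itgam at 0.18 (limma unadjusted p = 0.132). Itgam was at 40.05 ± 1.29 FPKM in Gem and 33.7 ± 0.813 in HU (SD, n = 2 each), which is 0.24 ± 0.10 on the log2 scale (SE, limma adjusted p = 0.456). The 95% confidence interval of the Itgam difference ran from 0.0044 to 0.48, that of Ly6c2 from -0.17 to 0.51 around 0.17, and that of Lyz2 from -0.49 to 0.53 around 0.023. The last was the widest of the 10, and that of Mrc1 ran from -0.68 to 0.33. With intervals of this width the test does not show that the drugs act alike on these genes.

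Ratios between markers within a library do not change when a whole library is multiplied by 1 factor, as in the trimmed-mean scaling. Quantile normalization applies no such factor and does change them: for both drugs it put Lyz2 at 0 and Csf1r at a log2 fold change of 0.34. Lyz2 to Csf1r was 145 and 148 in Gem, 138 and 147 in HU, and 99.3, 82.5 and 103 in DMSO. Lyz2 to Ly6c2 was 14.2 and 18.5 in Gem, 17.1 and 18.9 in HU, and 6.92, 7.23 and 9.72 in DMSO. Both ratios were higher in every drug library than in any DMSO library, with DMSO 3 nearest to the drugs. Ly6c2 to Csf1r was 10.2 and 7.97 in Gem, 8.12 and 7.75 in HU, and 14.4, 11.4 and 10.6 in DMSO. Cd68 to Csf1r was 1.30 and 1.51 in Gem, 1.28 and 1.32 in HU, and 1.77, 1.69 and 1.61 in DMSO. These 2 ratios were lower in all drug libraries, again with DMSO 3 nearest to them. The ratios of Ctss, Adgre1 and Mrc1 to Csf1r, of Cd14 to Tlr4 and of Ly6c2 to Ccr2 overlapped between the drug and DMSO libraries. The ratio of Itgam to Itgb2, the beta chain it pairs with, was 0.152 and 0.145 in Gem, 0.141 and 0.124 in HU, and 0.177, 0.212 and 0.159 in DMSO, with no overlap. No test was run on these ratios.

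The same ratio taken against every other gene shows how far each marker stood from the rest of the table. The ratio of Lyz2 to another gene was higher in all 4 drug libraries for 8 of the other 9 markers (all but Mrc1) and for 69.8% of 12686 other tested genes above 0 in every library, and lower for 1.09% of them. The ratio of Ly6c2 to another gene was lower in all 4 for 33.7% of these genes and higher for 0.67%. That of Csf1r was higher for 18.2% and lower for 4.15%, and the 3 markers against which it was higher were Cd68, Cd14 and Ly6c2. That of Mrc1 was higher for 2.62% and lower for 2.92%.

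**Figure D3:**
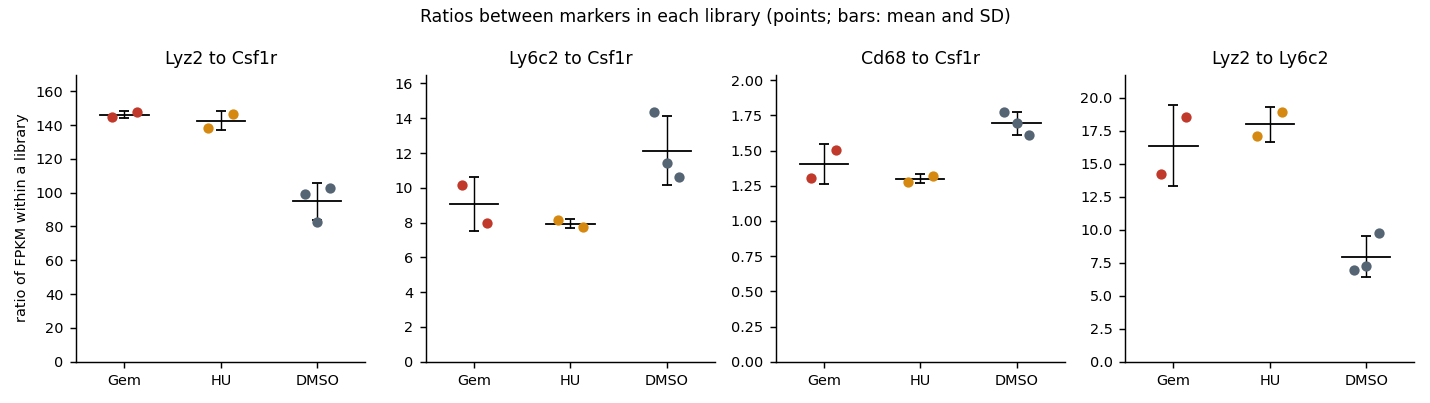
Ratios of FPKM within a library (vertical axes from 0, no unit) for 4 pairs of markers in the Gem, HU and DMSO libraries; points are libraries and bars are the mean and SD. The ratios of Lyz2 to Csf1r and to Ly6c2 are higher in all drug libraries, 138 to 148 and 14.2 to 18.9, and those of Ly6c2 and Cd68 to Csf1r are lower.

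The order of the markers by level was nearly the same in all 7 libraries: Lyz2, Ly6c2, Ctss, Cd68 and Csf1r came first, and Cd14, Itgam and Mrc1 last. The neighbours Ccr2 and Adgre1 changed places in Gem 2 and DMSO 3, where Adgre1 was higher, and their levels overlapped within Gem, within HU and within DMSO. The ranges of all other neighbours did not overlap within any group. By mean FPKM in DMSO the rank among all genes was 2 for Lyz2, 23 for Ly6c2, 135 for Ctss, 249 for Cd68, 405 for Csf1r, 883 for Ccr2, 1052 for Adgre1, 1530 for Cd14, 2266 for Itgam and 8906 for Mrc1.

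The genes whose profile over the 7 libraries was most like that of Lyz2, by the root mean square difference of centred log2 values among 8054 genes, were Ftl1 (0.0515) and Fth1 (0.0623), which encode the ferritin chains, and Oaz1 (0.0699), which encodes the antizyme that regulates polyamine synthesis. The median over the 8054 genes was 0.438. Ftl1 was at 51693 and 55186 FPKM in Gem, 50162 and 57134 in HU, and 36247, 32578 and 43602 in DMSO. For Csf1r the closest were Chd2 (0.0264), a chromatin remodeller, Ciz1 (0.0291), a nuclear protein that binds p21, and Pkm (0.0355), the pyruvate kinase, with a median of 0.186. These are descriptions over 7 libraries with the same treatments and carry no p.

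The markers were then set beside 7 lists of related genes, all for the mean of both drugs against DMSO as deposited, where 38% of all genes fell (62.7% of those with a mean of 5 FPKM or more) and 4.26% rose with a median of -0.27 (4.9% and 3.93% after scaling, with a median of 0.014). Among 12 genes of the M-CSF, GM-CSF and G-CSF axis 8 fell and 0 rose (median -0.34), and after scaling 1 fell, Csf2rb, the shared beta chain of the GM-CSF and IL-3 receptors. Csf2rb was at 56.5 and 54.3 FPKM in Gem, 48.9 and 47.2 in HU, and 78.9, 80.1 and 79.0 in DMSO, with all drug libraries well below DMSO. Its log2 fold change was -0.61 ± 0.05 (SE, limma adjusted p = 8.35e-04), and -0.28 after scaling (adjusted p = 0.0247). Csf2ra, the alpha chain and the highest of the list, was at 122 and 119 FPKM in Gem, 124 and 158 in HU, and 172, 177 and 183 in DMSO (-0.45 ± 0.09, limma adjusted p = 0.00618, but -0.11 scaled, adjusted p = 0.457). Csf2rb2 fell by 0.64 on the log2 scale (limma adjusted p = 0.00717), and Inpp5d, a phosphatase that dampens receptor signals, did not pass (-0.24, adjusted p = 0.118). Csf2rb and Csf2rb2 are close copies, and their split is uncertain.

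Of 16 transcription factors of the monocyte lineage 6 fell and 0 rose (median -0.24), and after scaling 0 passed in limma, with 4 at an unadjusted p under 0.05. Id2, an inhibitor of E proteins, was at 76.8 and 79.0 FPKM in Gem, 63.2 and 66.3 in HU, and 116, 110.3 and 95.3 in DMSO (-0.58 ± 0.08, SE, limma adjusted p = 0.00184). Irf5 and Cebpa, an interferon regulatory factor and a factor of myeloid commitment, fell by 0.34 and 0.46 on the log2 scale (limma adjusted p = 0.00363 and 0.0123). Irf8, which drives monocyte over granulocyte fate and was the highest of the list, overlapped at 281 and 256 FPKM in Gem, 272 and 294 in HU, and 313, 313 and 276 in DMSO (-0.12 ± 0.07, limma adjusted p = 0.208). In HU alone after scaling, limma called 1 of the 16 higher, Irf8, and 1 lower, Id2. Of all genes 4.75% rose and 10% passed in that comparison. Spi1, the gene of PU.1, was at 239.97 and 201 FPKM in Gem, 197 and 211 in HU, and 254, 255 and 252 in DMSO, a fall of 0.26 on the log2 scale (limma adjusted p = 0.0253) that turned to 0.074 after scaling (adjusted p = 0.516).

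PU.1 binds many promoters of myeloid genes, so the 250 bases before the start were searched for the letters GAGGAAG on both strands. Promoter sequences of RefSeq (GRCm38.p6) were found for 7 of the 10 markers. The letters stood in 3 of the 7 (Mrc1, Itgam and Ly6c2) and in 10.4% of all 27025 promoters of the same length. Mrc1 held 2 matches and overlapped with DMSO, while Cd68 and Ctss held 0 and were lower in all drug libraries. The sequences of Ly6c2 (chr15:75111972-75112221, minus strand, the first of 2 starts listed) and Itgam (chr7:128062390-128062639, plus strand) are shown because both genes were lower in all drug libraries; capitals mark the match, which begins at position -108 in Ly6c2 and -84 in Itgam relative to the start.
Ly6c2: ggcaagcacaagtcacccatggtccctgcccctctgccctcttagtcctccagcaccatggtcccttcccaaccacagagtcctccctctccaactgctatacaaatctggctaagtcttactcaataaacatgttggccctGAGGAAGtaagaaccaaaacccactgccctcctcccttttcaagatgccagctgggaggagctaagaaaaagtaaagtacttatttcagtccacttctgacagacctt
Itgam: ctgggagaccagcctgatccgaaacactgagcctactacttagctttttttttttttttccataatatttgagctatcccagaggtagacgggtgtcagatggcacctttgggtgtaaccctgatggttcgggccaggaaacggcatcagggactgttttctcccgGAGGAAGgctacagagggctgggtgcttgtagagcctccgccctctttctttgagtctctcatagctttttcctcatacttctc
The letters AGAGGAA, which can overlap the first motif, stood in 1 of the 7, Mrc1, and in 8.65% of all promoters. The C/EBP letters TTGCNNAA and the AP-1 letters TGANTCA each stood in 1 of the 7, Cd68, and in 9.55% and 6.87% of all promoters. A match of letters is a description of the sequence and not a measured binding site.

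Of 15 genes of lipopolysaccharide recognition, the pathway that CD14 feeds, 7 fell and 0 rose (median -0.31), and after scaling 0 passed in limma (2 at an unadjusted p under 0.05, Ly96 and Myd88). Ly96, the gene of the TLR4 partner MD-2, was at 12.6 and 15.4 FPKM in Gem, 10.5 and 9.12 in HU, and 22.1, 17.55 and 16.7 in DMSO (-0.63 ± 0.13, SE, limma adjusted p = 0.00675). Myd88 and Irak4, an adaptor and a kinase of the same pathway, fell by 0.52 and 0.46 on the log2 scale (limma adjusted p = 0.00298 and 0.00464). Tlr2, the highest of the list, was at 49.3 and 51.6 FPKM in Gem, 39.8 and 46.4 in HU, and 52.4, 49.1 and 76.2 in DMSO. Its Gem libraries overlapped with DMSO and its HU libraries lay below DMSO.

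Among 10 genes of integrins and adhesion 7 fell and 0 rose (median -0.25), and after scaling 0 passed in limma (1 at an unadjusted p under 0.05, Itgb2). Itgb2 was at 258 and 282 FPKM in Gem, 243 and 267 in HU, and 256, 259 and 313 in DMSO, an overlap (-0.068 ± 0.09, limma adjusted p = 0.565). Its partner Itgam fell as deposited, but after scaling it was at -0.10 and did not pass (limma adjusted p = 0.498). Selplg, the P-selectin ligand and the highest of the list, fell by 0.46 on the log2 scale (limma adjusted p = 0.00971). Fermt3, the integrin activator kindlin-3, and Itgb1 fell by 0.29 and 0.27 (limma adjusted p = 0.0118 and 0.0124) and turned to 0.047 and 0.061 after scaling.

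Of 22 Fc, scavenger and phagocytic receptors 13 fell and 0 rose (median -0.45), and after scaling 1 fell, Fpr1. Fpr1, the formyl peptide receptor, was at 7.09 and 6.05 FPKM in Gem, 10.2 and 11.2 in HU, and 25.4, 19.4 and 19.9 in DMSO. The 4 drug libraries lay far below DMSO, with Gem below HU. Its log2 fold change was -1.25 ± 0.12 (SE, limma adjusted p = 8.81e-04), and -0.94 after scaling (adjusted p = 0.00781). Fcgr2b, the inhibitory Fc gamma receptor, and Clec4d, a C-type lectin, fell by 0.52 and 0.65 on the log2 scale (limma adjusted p = 0.00222 and 0.00277). Tyrobp, an adaptor of many such receptors and the highest of the list, was at 2415 and 2198 FPKM in Gem, 1847 and 2054 in HU, and 3191, 3160 and 2772 in DMSO, and it fell (-0.52 ± 0.09, SE, limma adjusted p = 0.00420). Fcer1g, which overlapped with DMSO in Gem, did not pass (-0.25, limma adjusted p = 0.0511). Its HU libraries lay below DMSO, and it was called lower in HU alone as deposited, where 35.5% of all genes fell. Cd163 and Timd4, receptors of mature tissue macrophages, stayed at or under 0.38 and 0.10 FPKM in all 7 libraries and were not tested. Other macrophage receptors of this list were higher, with Trem2 at 130 to 202 FPKM, Axl at 46.0 to 57.0 and Mertk at 1.77 to 3.06.

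Of 17 lysosomal cathepsins and their partners 9 fell and 0 rose (median -0.27), and after scaling 1 fell, Cstb, and 1 rose, Psap. Psap, Cstb, Ctsd, Ctsa, Ctsb, Cst3 and Grn stood at an unadjusted limma p under 0.05 after scaling, 7 of the 17. The scaled sum of the list was 13798 and 14700 FPKM in Gem, 13118 and 14740 in HU, and 10818, 11024 and 13028 in DMSO. Every drug library thus lay above DMSO. As deposited the sums overlapped, at 13037 to 13323 in Gem, 11461 to 13205 in HU and 12515 to 14571.5 in DMSO. The part of single genes in this sum was not tested. Cstb, an inhibitor of cathepsins, was at 709.8 and 739.7 FPKM in Gem, 575 and 634 in HU, and 1112, 1088 and 1244 in DMSO. It fell by 0.79 on the log2 scale (limma adjusted p = 8.88e-04), and by 0.46 after scaling (adjusted p = 0.0193). Cst3, another inhibitor, and Ctsh fell by 0.76 and 0.40 as deposited (limma adjusted p = 0.00340 and 0.00224). Psap, the precursor of saposins and the highest of the list, was at 4981 and 4729 FPKM in Gem, 4123 and 5303 in HU, and 3424, 3639 and 4756 in DMSO, with DMSO 3 among the drug libraries. It did not pass as deposited (0.29 ± 0.15, limma adjusted p = 0.148) and passed after scaling (0.63, adjusted p = 0.0436). Ctsd, an abundant cathepsin, was at 0.029 as deposited (adjusted p = 0.816).

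Of 27 other genes of monocytes and macrophages 11 fell and 1 rose (median -0.28), and after scaling Lst1 fell and C1qb rose. Lst1, a small membrane protein of leukocytes, was at 181 and 146 FPKM in Gem, 117 and 142 in HU, and 296, 285 and 281 in DMSO. It fell by 0.98 on the log2 scale (limma adjusted p = 9.27e-04) and by 0.65 after scaling (adjusted p = 0.00988). C1qb, a chain of complement C1q, was at 58.4 and 84.5 FPKM in Gem, 64.8 and 63.7 in HU, and 47.9, 43.9 and 54.3 in DMSO, and all 4 drug libraries lay above DMSO. It rose by 0.46 ± 0.13 (SE, limma adjusted p = 0.0259) and 0.79 after scaling (adjusted p = 0.0214), and was named after its value was seen. C1qa and C1qc, the other chains of C1q, were not called, as deposited or scaled. The C1qc mean was 91.4% of the DMSO mean in Gem and 79.8% in HU, with the HU libraries below all DMSO libraries. The C1qa mean was 95.6% in Gem and 99.3% in HU, with overlap, at 1.83 to 3.1 FPKM. The rise was thus seen for C1qb and not for C1q as a whole. Aif1 and Ms4a6d fell by 0.44 and 0.60 (limma adjusted p = 0.00354 and 0.00388), as did Plac8 and Cyba, the 2 highest of the list (log2 -0.69 and -0.46, adjusted p = 0.00493 and 0.00724). Gem against HU called 0 of the 119 tested genes of the 7 lists in limma. At an unadjusted p under 0.05 were 11 of the 119, and 1484 of all 13865 genes tested.

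**Figure D4:**
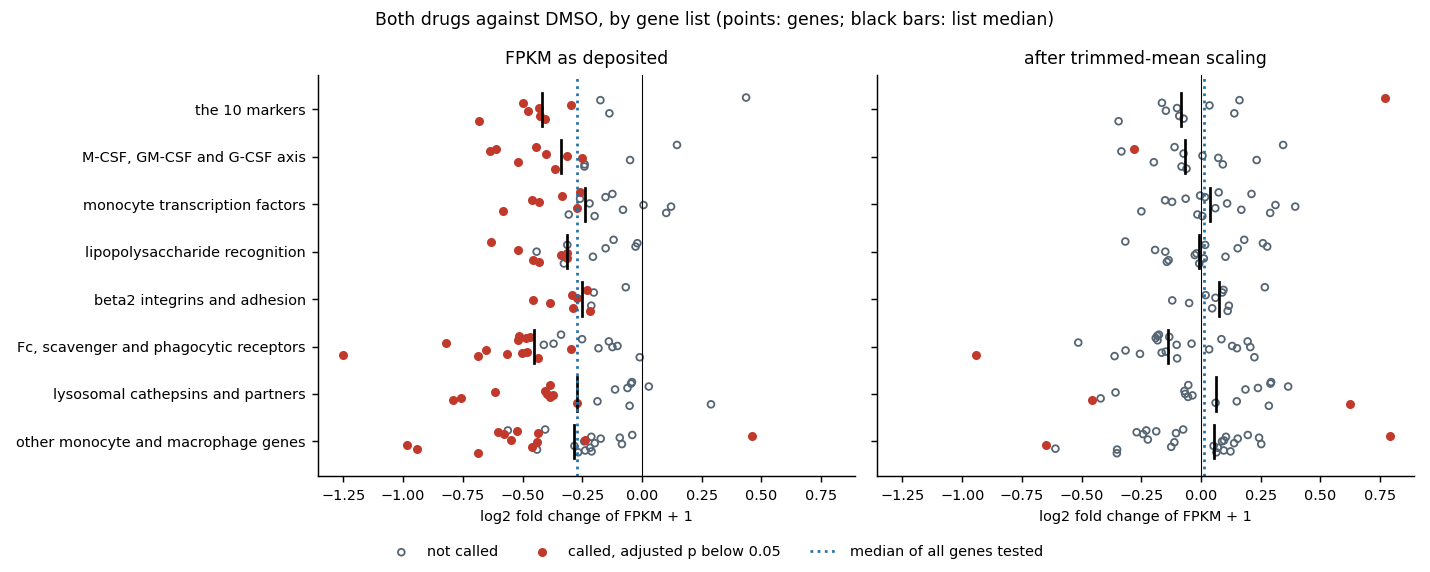
Log2 fold change of FPKM + 1 (horizontal axis) for the mean of both drugs against DMSO, by gene list (vertical axis), as deposited (left) and after trimmed-mean scaling (right); points are genes, filled where called by limma, black bars are list medians and the dotted line is the median of all genes tested. As deposited the list medians lie between -0.45 and -0.24 around the -0.27 of all genes, and after scaling few genes are called in any list.

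Transcripts of other cell types were present beside the markers, and several summed levels were lower with the drugs as deposited. After scaling, of the 9 lists only the erythroid sums lay below DMSO in all 4 drug libraries. Neutrophils also express Lyz2 and Itgam, and the 13 neutrophil genes summed to 15399 and 12411 FPKM in Gem, 12121 and 11584 in HU, and 18567, 17458 and 11631 in DMSO, so that DMSO 3 lay among the drug libraries; S100a8 was the highest. The megakaryocyte list, led by Pf4, summed to 1738 to 1833 in Gem, 1388 to 1585 in HU and 1783 to 2879 in DMSO, and the mast cell and basophil list, led by Prss34, to 238 to 424, 222 to 226 and 304 to 1389 in the same groups. The dendritic list, led by Cd74, summed to 753 to 776 FPKM in Gem, 727 to 897 in HU and 885 to 1077 in DMSO, and the stem cell list, led by Cd34, to 233 to 251, 208 to 216 and 294 to 299. Scaled, the dendritic sums were 821 to 831 in Gem, 811 to 1026.5 in HU and 765 to 963 in DMSO, and the stem cell sums 257 to 265 in Gem, 238 to 242 in HU and 255 to 267 in DMSO. Erythroid genes, led by Tfrc, summed to 54.7 to 63.4 FPKM in Gem, 62.4 to 63.1 in HU and 102 to 137 in DMSO, and scaled to 60.4 to 67.1, 69.7 to 72.2 and 88.4 to 119 in the same groups. For the mean of both drugs after scaling, limma called 1 gene lower in each of 5 lists and 0 higher in any of the 9. Over all genes tested 4.9% fell and 3.93% rose. The 5 were Ly6a (stem cell, 11 tested), Bst2 (dendritic, 9), Gzmb (mast cell and basophil, 7), Hbb-bt (erythroid, 7) and Treml1 (megakaryocyte, 8). Gzmb was near the floor, at 0.39 to 2.26 FPKM. None was called among the neutrophil (13 tested), B cell (1), T and NK cell (3) and stromal and endothelial (4) genes. B cell genes (led by Cd79b), T and NK cell genes (Nkg7) and stromal and endothelial genes (Spp1) summed to at most 28.2, 81.1 and 159 FPKM in any library. None of the genes of these 9 lists was at 0 in all libraries. The part of these cell types in the marker levels was not tested.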

How the data were processed

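FPKM values of 52224 genes in 7 libraries, in 1 table, are the authors' and were used as deposited, with 0 columns unused. Per the labels' protocols, a miRNeasy kit gave the RNA, Geo-seq amplified it as complementary DNA, and a TruePrep kit made the libraries. The submitters' processing notes list the build mm10 and, without roles, HTSeq, DESeq2, Cufflinks 2.1.1 and Bowtie 0.12.9; the tool behind the FPKM and its annotation is not given in the sources used here. If FPKM is scaled to all mapped fragments, fragments from elsewhere lower every gene, but which fragments were counted here is not known. The depth is unknown: among values of 0.1 to 1, the commonest ratio between libraries of a group held 2.33% to 4.17% of genes, so no reads were recovered and no counting intervals are given.

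limma 3.58.1 (R 4.3.3) was run on log2(FPKM + 1) of the 13865 genes that reached 1 FPKM in 2 or more libraries, in 1 model of the 3 groups with a mean-variance trend, no block and 4 residual degrees of freedom. The pseudocount understates the change of low genes. Tests were two-sided, Benjamini-Hochberg adjustment covered all 13865 genes, and a call needed an adjusted p below 0.05. The script was tested on simulated data. Trimmed-mean scaling removed 30% of ratios and 5% of levels at each end. Alternatives were 3 scalings, another pseudocount (0.1), other filters (none, or a mean FPKM of 5 or more), no trend, only the compared libraries, a replicate block and leaving out each library. The members and lists were chosen with earlier results of these data known. Named were all 10 markers, up to 3 called genes with the smallest p and the 2 with the highest mean from each of the 7 related lists, the copies Lyz1 and Ly6c1, the 3 genes most like Lyz2 and Csf1r, and the highest gene of each of the 9 lists of other cell types; other genes were named after their values were seen. Positions and coding sequences come from GENCODE M21, promoters from RefSeq, and figures were drawn with matplotlib 3.10.9 in Python 3.11.15.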

Additional observations from a re-analysis of the deposited data

How the results depend on the processing

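With a pseudocount of 0.1 the number of markers called stayed at 5 in Gem and 7 in HU, and Gem against HU called 0 under all 16 alternatives. In Gem the markers called were 0 with no filter, 0 on the TPM scale, 0 after trimmed-mean scaling, 0 after quantile normalization, 2 with no trend and 3 with only the compared libraries, and 0 to 4 when 1 library was left out. In HU they were 1 on the TPM scale, 1 after trimmed-mean scaling, 0 after quantile normalization and 3 to 7 without 1 library, and for both drugs 2, 1 and 0 under these scalings and 5 to 7 without 1 library. Over all genes the count in Gem was 3421 as deposited, 1509 with no filter, 432 on the TPM scale, 132 trimmed-mean scaled, 67 quantile normalized, 2132 with no trend and 13 to 3381 without 1 library. It was 5541 in HU (1480, 1389 and 560 under the 3 scalings, 3095 to 5204 without 1 library), 5861 for both drugs (1662, 1225 and 491, and 4113 to 5319) and 14 in Gem against HU (1 with a pseudocount of 0.1, 2 with no filter, 2 at a mean of at least 5, 64 with no trend, 1 with only the compared libraries, 1 to 11 without 1 library). Of the calls of markers and of the 21 list genes named by smallest p, direction turned after trimmed-mean scaling for Adgre1 (log2 0.024 in HU, 0.036 in both drugs), Fermt3 (0.047) and Itgb1 (0.061). Of the marker values not called in Gem or HU against DMSO, those of Csf1r (0.12 in Gem, 0.20 in HU) and Mrc1 (0.025 and 0.25) turned. So did Adgre1 (0.048) and Ccr2 (1.31e-04, from -0.30 as deposited) in Gem. After quantile normalization these calls turned for Adgre1 (0.20 and 0.18), Ccr2 (0.018 and 0.063) and Cd68 (0.13 and 0.058), each in HU and both drugs, for Ctss (0.027 in Gem, 0.090 in HU, 0.059 in both), Itgam in Gem (0.054) and, in both drugs, Csf2ra (0.074), Ctsh (0.12), Fcgr2b (0.0072), Irf5 (0.13), Selplg (0.064), Fermt3 (0.25) and Itgb1 (0.18); the cause was not tested. Libraries with the same number did not deviate together (correlations from -0.074 to 0.055). With only 2 libraries in Gem and in HU, this check cannot exclude that the numbers pair them. With the replicate block 3 markers were called in Gem (Lyz2 higher), 7 in HU and 7 in both drugs (6 lower and Lyz2 higher in each), and 2877, 4835, 4899 and, in Gem against HU, 2 genes of all. All 21 genes named by smallest p in the related lists kept their call without each library, but they were picked for a small p in these same libraries. After trimmed-mean scaling only Csf2rb, Fpr1, Cstb and Lst1 of the 21 kept it. For both drugs Lyz2 also passed among genes with a mean of 5 FPKM or more and with no trend. With the depth unknown, the counting error of low genes such as Mrc1 is unknown.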
